A study of Mus musculus with 6 samples.

Results

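The nuclear genes of respiratory complexes II to V were examined in bone marrow RNA of wild-type and P2rx7 knockout mice. Members were taken by gene name: Cyc1, Cycs, and symbols that start with Sdh plus a to d, Uqcr, Cox plus a digit from 4 to 8, or Atp5, without hyphenated or Rik names. This gave 54 of the 55291 genes in the table: 8 of complex II, 9 of complex III, cytochrome c, 19 of complex IV and 17 of complex V. The names also bring in 4 complex II assembly factors (Sdhaf1 to Sdhaf4), the supercomplex factor Cox7a2l and Cox6c2, which GENCODE M21 annotates as a processed pseudogene.

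The wild types are WT 1, 2 and 3 and the knockouts are A, B and C, each a mouse aged 6 to 8 weeks whose femurs were flushed, untreated as far as the labels say. P2rx7 is a cation channel opened by extracellular ATP, which the series title links to mitochondrial fitness of mesenchymal stromal cells and to bone ageing. The labels give no strain, sex or design of the knockout allele, and no agent is named. Each mouse gave 1 library.

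Complex II (succinate dehydrogenase) oxidises succinate and passes the electrons to ubiquinone, complex III (the cytochrome bc1 complex) passes them to cytochrome c, and complex IV (cytochrome c oxidase) passes them to oxygen. Complexes III and IV pump protons, and complex V (ATP synthase) uses the proton gradient to make ATP. Complex II is encoded wholly in the nucleus, whereas complexes III, IV and V also have subunits encoded in mitochondrial DNA. Several complex IV subunits exist as a widely expressed form and a form typical of muscle, lung or testis.

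Libraries held 18716704 to 23575652 counts, of which the 54 genes took 0.407% to 0.438%. P2rx7 itself was at 10.1, 10.2 and 10.5 FPKM (counts scaled by summed exon length and by effective library size) in WT 1, 2 and 3 and at 6.63, 6.37 and 6.24 FPKM in knockouts A, B and C. It was lower in all 3 knockouts and was not lost (log2 fold change -0.67 ± 0.05, SE; adjusted p = 0.0109, edgeR; exact two-sided permutation p = 0.1, the smallest that 3 against 3 allows). Without knockout B its adjusted p in edgeR was 0.0763, and without knockout C it was 0.0973. In bulk samples such as these, fewer cells of a type and less RNA per cell cannot be told apart. Among marker lists, the sum of 13 erythroid markers was 1.51 to 2.59 FPKM in wild types and 2.30 to 4.33 FPKM in knockouts. Slc4a1 was at 0 in every library, and Hba-a1, Hba-a2, Hbb-bs and Hbb-bt were at most 0.324 FPKM. The defining transcripts of red cell precursors thus had almost no counts in libraries labelled bone marrow. How reads that match more than 1 of these genes were counted is not known. The osteoblast list, mostly Col1a1 and Col1a2, summed to 1869 to 2310 FPKM in wild types and 1847 to 1974 FPKM in knockouts. The median log2 fold change of its 5 tested markers was 0.55, with 3 positive and 2 negative. The monocyte and macrophage list summed to 1526 to 1584 and 1646 to 1723 FPKM. Of its 10 tested markers 8 had a positive fold change. Only 1 passed an adjusted p of 0.05, and it was lower in knockouts (adjusted p = 0.0486, edgeR), as were 0.0452% of all tested genes. No label divides the libraries within a genotype. From the values alone, knockouts B and C were set apart by the lowest traces of pituitary transcripts (list sums of 0.331 and 0.0378 FPKM, against 2.28 in knockout A and 5.56 to 6.72 in wild types). Knockout A also lay below the wild types, and the 3 tested genes of this list were all separated downward in knockouts (10.4% of all tested genes were). Knockouts B and C have the same genotype as knockout A, so this division can be told apart from the genotype only through knockout A. Left out, or fitted with a term for this division, they leave the genotype effect on knockout A alone, and the adjusted p of P2rx7 in edgeR was then 0.548 and 0.112.

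How well counts can be told apart between near-identical genes depends on sequence, so the coding sequences of the c-ring genes and of Cox6c with its copy are shown. The c subunit of ATP synthase, whose ring turns as protons pass, is made from Atp5g1, Atp5g2 or Atp5g3. The last 79 codons of the 3 genes, stop included, translate to the same 78 residues, so that the mature ring is built from the same protein whichever gene is used. Over these 237 bases the genes differ at 64 positions, shown in capitals (GENCODE M21 transcripts, GRCm38; Atp5g1 on chromosome 11, Atp5g2 on chromosome 15 and Atp5g3 on chromosome 2).
Atp5g1: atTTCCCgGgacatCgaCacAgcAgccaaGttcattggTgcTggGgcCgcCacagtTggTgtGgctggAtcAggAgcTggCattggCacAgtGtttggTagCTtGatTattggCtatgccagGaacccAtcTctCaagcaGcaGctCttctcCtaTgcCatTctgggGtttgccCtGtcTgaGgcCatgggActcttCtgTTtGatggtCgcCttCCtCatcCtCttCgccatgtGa
Atp5g2: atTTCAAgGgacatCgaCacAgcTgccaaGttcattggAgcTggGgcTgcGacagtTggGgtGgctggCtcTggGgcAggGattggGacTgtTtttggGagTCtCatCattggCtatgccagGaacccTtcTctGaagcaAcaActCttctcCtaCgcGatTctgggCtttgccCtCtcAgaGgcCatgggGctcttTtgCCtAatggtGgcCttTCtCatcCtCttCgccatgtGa
Atp5g3: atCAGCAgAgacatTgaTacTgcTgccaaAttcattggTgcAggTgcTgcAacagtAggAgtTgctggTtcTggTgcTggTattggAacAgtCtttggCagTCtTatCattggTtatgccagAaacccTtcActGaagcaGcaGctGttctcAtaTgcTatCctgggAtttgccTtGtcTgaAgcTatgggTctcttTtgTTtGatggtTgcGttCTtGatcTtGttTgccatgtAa
The closest pair, Atp5g1 and Atp5g2, differs at 36 positions with a longest shared run of 21 bases.

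Cox6c and Cox6c2 are far closer. Cox6c encodes subunit 6c of complex IV, with a gene that spans 35925886 to 35938246 on the minus strand of chromosome 15. Cox6c2 is a single block of 231 bases at 56373593 to 56373823 on the minus strand of chromosome 12. They differ at 7 positions (97.0% identity), in capitals, and share a run of 145 bases.
Cox6c: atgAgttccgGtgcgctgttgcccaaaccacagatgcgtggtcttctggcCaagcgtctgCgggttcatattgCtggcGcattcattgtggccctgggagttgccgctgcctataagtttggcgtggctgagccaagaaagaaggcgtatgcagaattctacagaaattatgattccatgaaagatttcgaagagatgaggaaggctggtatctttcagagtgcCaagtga
Cox6c2: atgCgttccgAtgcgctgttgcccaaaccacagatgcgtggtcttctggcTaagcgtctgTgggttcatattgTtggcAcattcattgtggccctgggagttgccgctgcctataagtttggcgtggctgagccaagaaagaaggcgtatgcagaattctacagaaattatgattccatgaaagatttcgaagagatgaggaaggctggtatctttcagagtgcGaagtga
Reads within that run match both places, so the split of counts between Cox6c and Cox6c2 is uncertain. Cox6c was at 14.7, 14.3 and 16 FPKM in WT 1, 2 and 3 and at 15.3, 14.6 and 13.6 FPKM in knockouts A, B and C. Cox6c2 was at 8.41, 9.54 and 15.3 FPKM in wild types and at 12.7, 10.7 and 12.9 FPKM in knockouts. These FPKM values are near each other because they divide by 3567 summed exon bases for Cox6c and by 231 for Cox6c2. Per library Cox6c had 972 to 1320 counts and Cox6c2 had 39 to 82. In both genes the genotypes overlapped.

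Cox8a was the most abundant of the 54 genes by FPKM. It encodes a small subunit of complex IV, and it was at 255, 259 and 262 FPKM in WT 1, 2 and 3 and at 249, 280 and 267 FPKM in knockouts A, B and C. The F1 head subunit Atp5b, which carries the catalytic sites of ATP synthase, led complex V with 153, 165 and 156 FPKM in wild types and 151, 156 and 157 FPKM in knockouts. Knockout A was the lowest library for both. In complex III the small subunit Uqcr10 had the highest FPKM, at 68.1, 75.2 and 82.0 FPKM in wild types and 67.8, 91.3 and 83.0 FPKM in knockouts. Cycs, the electron carrier between complexes III and IV, was at 3.26, 3.29 and 2.83 FPKM in wild types and 2.64, 3.65 and 3.13 FPKM in knockouts. The genotypes overlapped in each of these 4 genes.

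FPKM understates a gene whose reads come from a shorter transcript, because the deposited length sums all annotated exons. That length was 1.0 to 11.8 times that of 1 GENCODE M21 coding transcript, with a median of 1.64 over the 51 genes that have one. The transcript taken, called principal here, was the shortest of those marked as principal in the annotation. Where none was so marked, it was the shortest coding transcript. The ratio was 11.8 for Atp5l, 8.24 for Atp5g1 and 7.09 for Cox6c. With all counts of a gene assigned to its principal transcript, Cox6c came to 105 rather than 14.8 and Atp5l to 27.3 rather than 2.30. Whether the counts came from that transcript was not tested. Cox6c also shares 250 exon bases with Vps13b on the opposite strand, with 6726 counts for Cox6c and 8621 for Vps13b over the 6 libraries. The leading genes changed on this scale of principal transcripts: Uqcrq (170) passed Uqcr10 (105) in complex III, and Atp5b (345) and Cox6a1 (304) passed Cox8a (295). Ratios between genotypes do not depend on this length. Further, 17 of the 54 genes share exon bases with another annotated gene, 16 of them on the opposite strand, and in 8 the other gene had at least 10% of the member's counts.

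**Figure D1:**
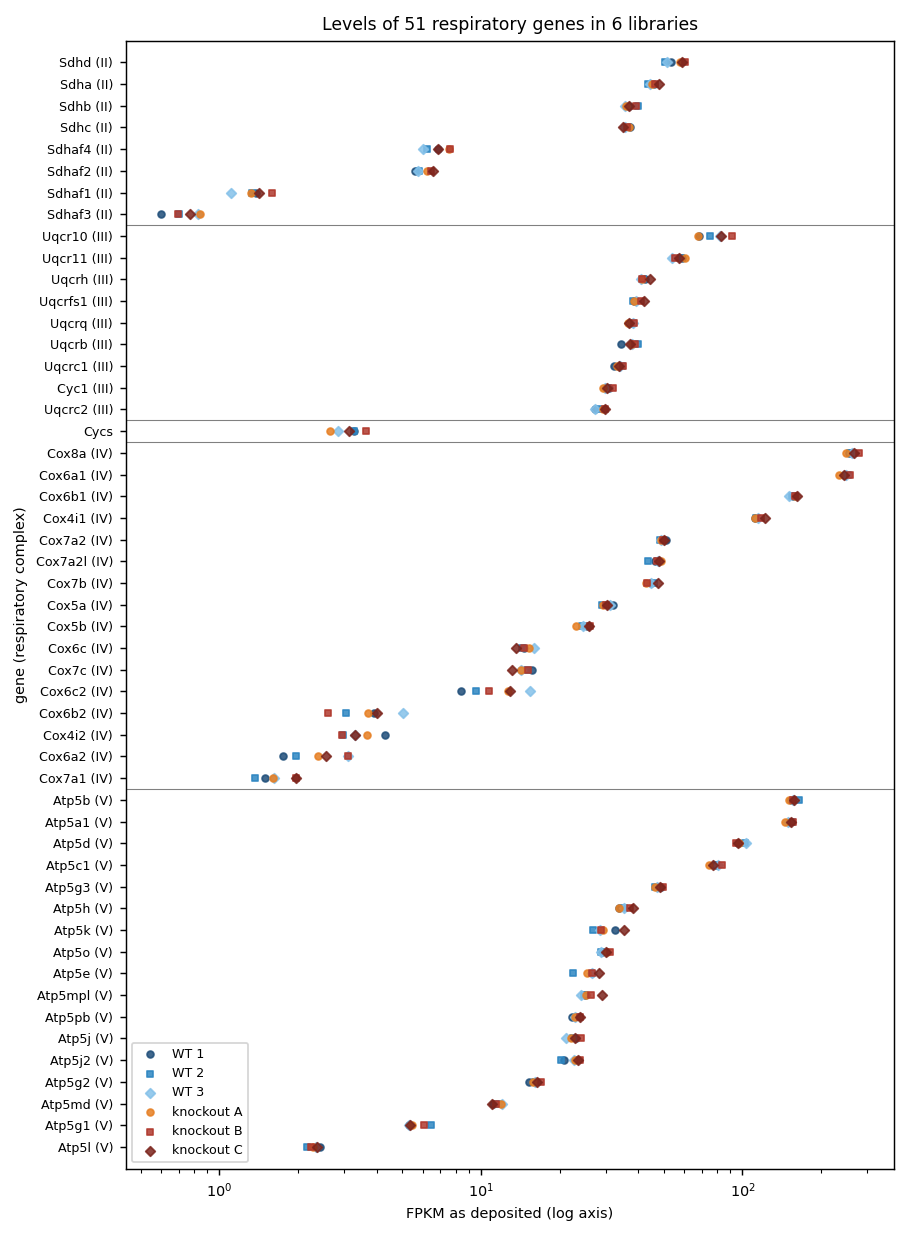
FPKM (log axis) of 51 genes, grouped by complex and sorted by mean level, with 1 point for each of the 6 libraries; Cox7b2, Cox8b and Cox8c, near or at 0, are not drawn. Knockout and wild-type points lie close together for most genes, from below 1 FPKM for Sdhaf3 to 249 to 280 FPKM for Cox8a.

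Where a subunit has a widely expressed and a tissue-restricted gene, the restricted one made up at most 3.70% of the level in any library. Cox4i1, the common form of subunit 4, was at 112, 113 and 114 FPKM in wild types and 112, 117 and 122 FPKM in knockouts. Cox4i2, the lung form, was at 4.30, 2.96 and 3.29 FPKM in wild types and 3.67, 2.94 and 3.29 FPKM in knockouts. It thus made up 3.02% ± 0.600 of the subunit 4 level in wild types and 2.74% ± 0.381 in knockouts (SD, n = 3).

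For subunit 6a, Cox6a1, the common form, was at 243, 254 and 250 FPKM in wild types and 235, 258 and 244 FPKM in knockouts. Cox6a2, the heart and skeletal muscle form, was at 1.76, 1.97 and 3.12 FPKM in wild types and 2.39, 3.10 and 2.56 FPKM in knockouts, with overlapping groups. Its share of the subunit 6a level was 0.906% ± 0.283 in wild types and 1.08% ± 0.0957 in knockouts (SD, n = 3). Cox6a2 shares 70 exon bases with Itgad on the opposite strand, with 215 counts for Cox6a2 and 126 for Itgad over the 6 libraries. The testis form Cox6b2 was at 3.91, 3.04 and 5.03 FPKM in wild types and 3.71, 2.61 and 4.003 FPKM in knockouts, beside 151 to 162 FPKM of the common form Cox6b1. The muscle form of subunit 7a, Cox7a1, was at 1.49, 1.37 and 1.62 FPKM in wild types and 1.60, 1.97 and 1.96 FPKM in knockouts. It overlapped between genotypes through WT 3 and knockout A. Its relatives Cox7a2 (51.2, 48.4 and 48.8 against 49.0, 49.6 and 49.99 FPKM) and Cox7a2l (46.5, 43.7 and 47.7 against 48.6, 47.1 and 48.2 FPKM) made up 51.1% and 47.4% of the subunit 7a level in wild types and 49.9% and 48.3% in knockouts. Cox7a2l takes part in assembling supercomplexes of complexes III and IV.

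The other restricted forms were scarcely detected: Cox8c had no count in any library, Cox7b2 had 1 count in knockout A, and Cox8b had 0 counts in each wild type, 2 in knockout A, 1 in knockout B and 2 in knockout C. A count of 0 allows up to 3 counts, so these values are within the limit of detection. Their common counterparts were high, with Cox7b at 44.8, 46.0 and 44.8 FPKM in wild types and 42.7, 43.3 and 47.7 FPKM in knockouts. Skeletal muscle markers summed to 11.2 to 14.1 FPKM in wild types and 9.73 to 12.5 FPKM in knockouts. Heart muscle markers summed to 0.811 to 1.30 FPKM in wild types and to 1.01, 3.39 and 2.37 FPKM in knockouts A, B and C. Of these, Myh6 had 0 counts in the wild types and in knockout A, 40 in knockout B and 54 in knockout C. Brown adipocyte markers summed to 0.158 to 0.359 FPKM and 0.482 to 0.642 FPKM, with Ucp1 at 0 in 2 of 3 wild types and in 2 of 3 knockouts.

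Of the c-ring genes, Atp5g3 had the highest level. It was at 48.7, 46.4 and 47.1 FPKM in wild types and 46.4, 49.7 and 48.2 FPKM in knockouts. Atp5g2 was at 15.3, 16.2 and 16.1 FPKM in wild types and 15.8, 16.9 and 16.4 FPKM in knockouts, and Atp5g1 at 5.31, 6.46 and 5.33 FPKM in wild types and 5.46, 6.07 and 5.36 FPKM in knockouts. The shares of FPKM were 68.7% for Atp5g3, 23% for Atp5g2 and 8.26% for Atp5g1 in wild types, and 68.6%, 23.4% and 8.03% in knockouts. Per base of principal transcript the shares over all 6 libraries were 57.5%, 24.1% and 18.4% in the same order of genes, so the share of Atp5g1 depends on the length used. The principal transcript of Atp5g2 (441 bases for 146 residues) holds coding bases only. Those of Atp5g1 (596 bases for 136 residues) and Atp5g3 (714 bases for 141 residues) also hold bases outside the coding sequence. The share of Atp5g2 on this scale may therefore be too high.

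**Figure D2:**
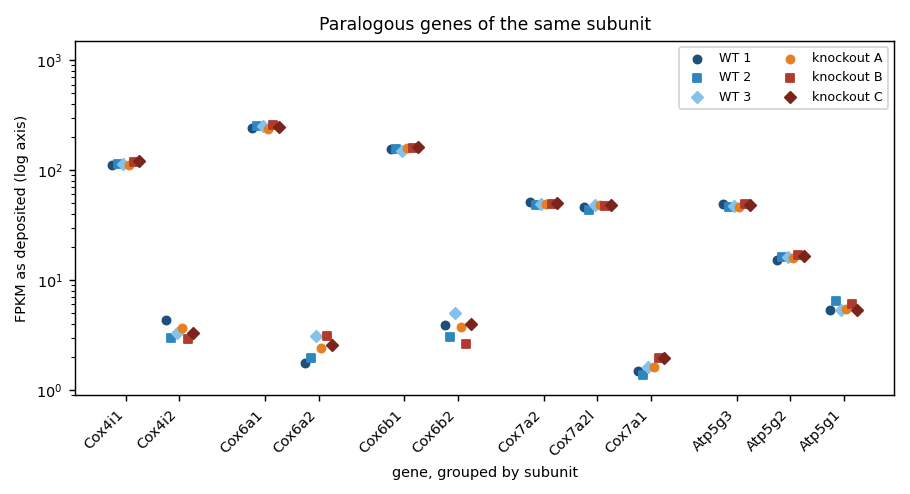
FPKM (log axis) of paralogous genes for subunits 4, 6a, 6b and 7a of complex IV and for the c ring of complex V, with 1 point per library. The common complex IV forms and Cox7a2l lie at 43.7 FPKM and above, and the restricted forms at 5.03 FPKM and below, in both genotypes.

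Cox8a and Cox8b contrast widely in level, and their upstream sequences are shown for that reason (RefSeq, GRCm38.p6; 250 bases before the start, 5′ to 3′ on the minus strand that carries both genes, no base in an exon of the deposited annotation). Cox8a lies at chr19:7217617-7217866 and Cox8b at chr7:140900447-140900696. Neither stretch holds a motif that was searched, so no base is in capitals. The 50 bases that follow add an ETS core in Cox8a and TATAAA in Cox8b.
Cox8a: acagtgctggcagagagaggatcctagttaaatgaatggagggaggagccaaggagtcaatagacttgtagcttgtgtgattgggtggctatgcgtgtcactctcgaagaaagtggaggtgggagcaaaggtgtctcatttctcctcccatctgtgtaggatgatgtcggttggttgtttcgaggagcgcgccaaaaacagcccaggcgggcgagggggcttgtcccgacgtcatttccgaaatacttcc
Cox8b: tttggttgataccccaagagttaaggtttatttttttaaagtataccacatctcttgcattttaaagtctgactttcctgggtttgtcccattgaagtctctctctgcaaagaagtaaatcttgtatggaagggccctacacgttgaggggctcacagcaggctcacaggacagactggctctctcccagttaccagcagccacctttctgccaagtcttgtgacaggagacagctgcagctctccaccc
The Cox8a stretch holds 11 CpG dinucleotides and 52.8% GC, and the Cox8b stretch holds 1 and 47.2%. Windows from 250 bases before to 50 after the start were found for 41 of the 54 genes. Over these 300 bases the members had a median of 19 CpG and 57.0% GC, against 7 and 52.7% for 27025 genes. The latter set was not limited to tested genes, and it was not matched to the members for CpG. The ETS core CCGGAAG, the site read by GABPA, was found on either strand in 36.6% of the members' windows and 9.12% of all windows. For the NRF1 core GCGCATGC these shares were 19.5% and 2.80% (9.76% and 0.977% for the NRF1 palindrome of 10 letters that contains it), for the oestrogen-related receptor half-site AAGGTCA 12.2% and 4.66%, for the YY1 core AAGATGGC 4.88% and 2.88%, and for TATAAA 12.2% and 14.2%. The ETS core ends in the AAG with which the YY1 and receptor motifs begin, so these can overlap, and a match describes the letters only. The factors themselves were measured. Gabpa was at 12.8 ± 0.326 FPKM in wild types and 11.7 ± 0.424 FPKM in knockouts (SD, n = 3). It shares 397 exon bases with the member Atp5j on the opposite strand, with 8931 counts for Gabpa and 9010 for Atp5j over the 6 libraries. Yy1 was at 19.8 ± 0.166 and 19.0 ± 0.165 FPKM (SD, n = 3), and neither Gabpa nor Yy1 passed the threshold. Nrf1 was at 2.59 ± 0.0662 and 2.52 ± 0.1001 FPKM, and Esrra, an oestrogen-related receptor gene, at 8.68 ± 0.164 and 8.82 ± 0.696 FPKM (SD, n = 3), both with overlap. Of 11 tested regulators 3 were lower at an unadjusted p under 0.05 in edgeR (8.22% of all tested genes were) and 0 were higher (8.35%). Groups were separated downward in 4, Pprc1, Gabpa, Yy1 and Ppard (10.4% of all were), and upward in 1 (11.5%). Fold changes were positive in 4 of the 11.

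Between genotypes no respiratory gene passed the test. Low counts left 51 genes to test, without Cox7b2, Cox8b and Cox8c. None of the 51 passed an adjusted p of 0.05 in edgeR, where 0.103% of all tested genes did (0.0581% higher and 0.0452% lower in knockouts), and none passed in DESeq2, where 3.20% did. At an unadjusted p under 0.05, 4 of 51 were higher and 0 were lower in knockouts in edgeR, against 8.35% higher and 8.22% lower of all tested genes. The 95% interval of the fold change lay within 1.25-fold in either direction for 41 of 51 members and for 7366 of 15478 genes. The members vary less between replicates than other genes, with a median SD of 0.0658 on the log2 scale against 0.113, and are more abundant, at a median log2 CPM of 5.72 against 4.35.

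**Figure D3:**
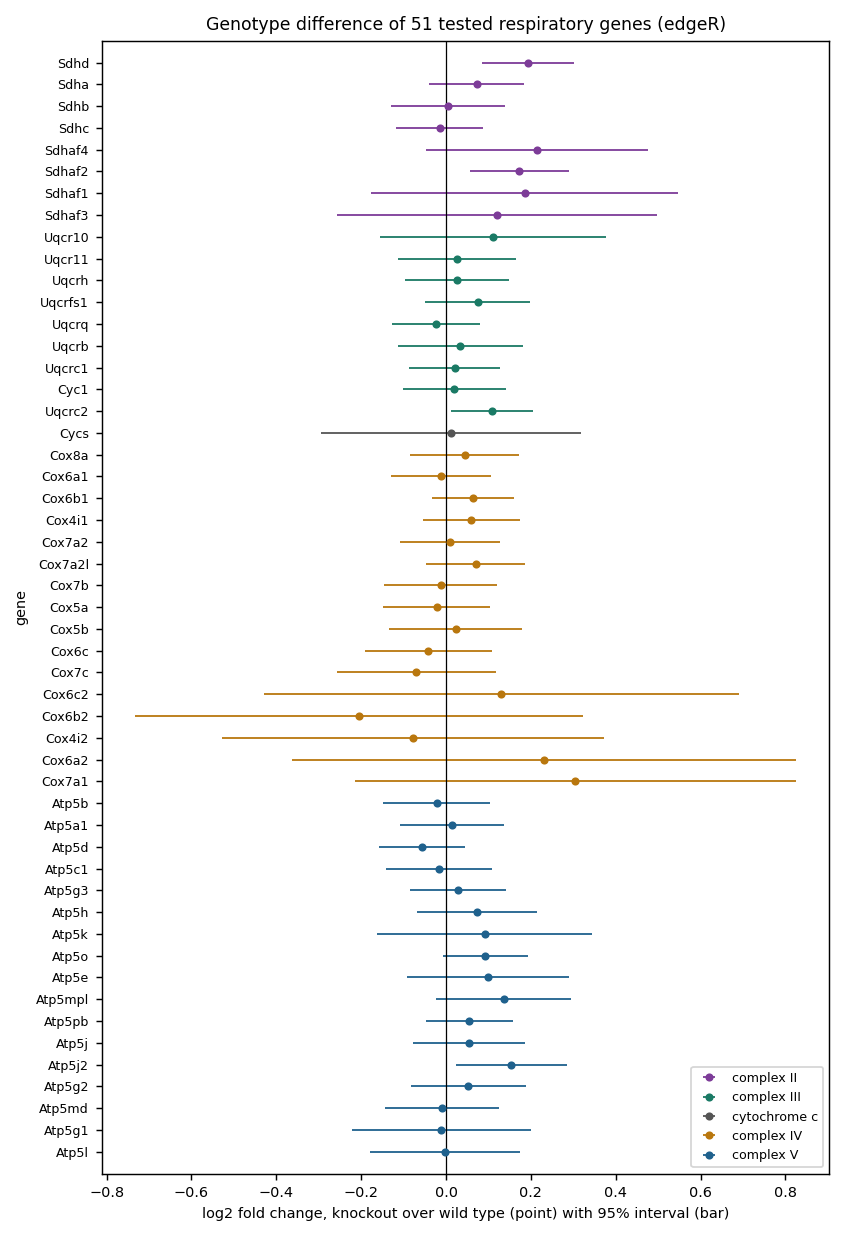
Log2 fold change of knockout over wild type (point) and its 95% interval (bar) from edgeR for the 51 tested genes, coloured by complex. The intervals of Sdhd, Sdhaf2, Uqcrc2 and Atp5j2 do not include 0, and no gene passed the adjusted threshold.

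The genes of smallest p were in complex II. Sdhd, a membrane anchor of succinate dehydrogenase, was at 53.2, 50.8 and 51.4 FPKM in WT 1, 2 and 3 and at 57.9, 60.1 and 58.7 FPKM in knockouts A, B and C. All 3 knockouts lay above all 3 wild types, with a log2 fold change of 0.19 ± 0.05 (SE) and an adjusted p of 0.159 in edgeR. Sdhaf2, which helps attach the flavin cofactor to Sdha, was at 5.60, 5.79 and 5.73 FPKM in wild types and 6.21, 6.46 and 6.54 FPKM in knockouts (0.17 ± 0.05, adjusted p = 0.189, edgeR). It shares 94 exon bases with Cpsf7 on the opposite strand. Sdhaf4, another assembly factor, was at 6.84, 6.23 and 5.99 FPKM in wild types and 7.54, 7.59 and 6.84 FPKM in knockouts, where WT 1 and knockout C nearly met at 6.015 and 6.020 CPM (0.21 ± 0.11, adjusted p = 0.386, edgeR). Sdha, the flavoprotein that binds succinate, was at 45.8, 43.7 and 44.2 FPKM in wild types and 45.3, 46.4 and 48.1 FPKM in knockouts, with overlap (0.07 ± 0.05, adjusted p = 0.488, edgeR). Sdhc, the other membrane anchor, was at 37.3, 36.5 and 35.6 FPKM in wild types and 36.8, 36.1 and 34.8 FPKM in knockouts, with overlap. The genotypes also overlapped in the iron-sulphur subunit Sdhb (35.5 to 39.7 FPKM over the 6 libraries) and in the low assembly factors Sdhaf1 (1.11 to 1.59 FPKM) and Sdhaf3 (0.596 to 0.842 FPKM).

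In complex III the core protein Uqcrc2 was at 27.3, 28.3 and 27.4 FPKM in wild types and at 29.4, 29.9 and 29.7 FPKM in knockouts. The groups did not overlap, and the adjusted p was 0.263 in edgeR (0.11 ± 0.04). The Rieske iron-sulphur protein Uqcrfs1 was at 38.6, 38.2 and 39.0 FPKM in wild types and 38.5, 40.8 and 42.0 FPKM in knockouts (0.07 ± 0.05, adjusted p = 0.523, edgeR). Its knockout A lies among the wild types, and without knockouts B and C its log2 fold change was -0.01. Uqcrq, a small subunit, was at 37.7, 38.3 and 38.2 FPKM in wild types and 36.5, 38.4 and 36.9 FPKM in knockouts, with overlap. The genotypes overlapped as well in Cyc1, the cytochrome c1 subunit (29.4 to 32.1 FPKM), the core protein Uqcrc1 (32.4 to 35.0 FPKM) and the small subunits Uqcrb, Uqcrh and Uqcr11 (34.5 to 60.4 FPKM).

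Complex IV had 1 gene with separated groups. Cox6b1, which faces the intermembrane space, was at 156, 154 and 151 FPKM in wild types and 159, 159 and 162 FPKM in knockouts, a log2 fold change of 0.06 ± 0.04 (adjusted p = 0.483, edgeR). The restricted forms had wide intervals: 0.30 ± 0.23 for Cox7a1, 0.23 ± 0.26 for Cox6a2 and -0.21 ± 0.23 for Cox6b2 (adjusted p of 0.588, 0.697 and 0.697, edgeR). With 1 library left out, the value of Cox6b2 ran from -0.375 without WT 2 to -0.0008 without WT 3, and was -0.0487 without knockout B and -0.3276 without knockout C. That of Cox6a2 ran from 0.0813 without WT 1 to 0.5244 without WT 3, and was 0.1254 without WT 2 and 0.116 without knockout B. Cox7c, a small subunit, was at 15.6, 14.97 and 14.2 FPKM in wild types and 14.2, 15.2 and 13.1 FPKM in knockouts (-0.07 ± 0.08, adjusted p = 0.709, edgeR). Cox5b, with a level of 23.1 to 26.2 FPKM, also had overlapping groups. Cox5a was at 31.9, 29.0 and 31.0 FPKM in wild types and 29.4, 30.2 and 30.4 FPKM in knockouts. Over the 10 widely expressed subunits the median log2 fold change was -0.00.

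In complex V, Atp5j2, a subunit of the membrane part, was at 20.9, 20.2 and 22.7 FPKM in wild types and 22.9, 24.0 and 23.6 FPKM in knockouts (0.15 ± 0.06, adjusted p = 0.246, edgeR). Atp5o, part of the peripheral stalk that holds the head still, was at 28.9, 28.8 and 28.8 FPKM in wild types and 30.4, 31.3 and 30.1 FPKM in knockouts (0.09 ± 0.04, adjusted p = 0.335, edgeR). Both had separated groups, and Atp5o shares 287 exon bases with Donson on the same strand. Atp5mpl, a small membrane subunit, was at 25.0, 24.8 and 24.1 FPKM in wild types and 25.2, 26.3 and 29.1 FPKM in knockouts, and on the CPM scale its groups overlapped (0.14 ± 0.07, adjusted p = 0.367, edgeR). Atp5d, a subunit of the central stalk, had the smallest p of the genes with a negative fold change, at 96.2, 102 and 103 FPKM in wild types and 97.2, 94.5 and 96.3 FPKM in knockouts (-0.06 ± 0.04, adjusted p = 0.552, edgeR). Atp5c1, also of the central stalk, was at 79.5, 79.1 and 80.7 FPKM in wild types and 74.8, 83.5 and 77.1 FPKM in knockouts, with overlap. The genotypes also overlapped in the head subunit Atp5a1 (146 to 157 FPKM) and in Atp5e of the central stalk (22.5 to 28.4 FPKM). They overlapped as well in the peripheral stalk subunits Atp5pb, Atp5h and Atp5j (21.2 to 38.3 FPKM) and in the membrane subunits Atp5k, Atp5l and Atp5md (2.17 to 35.2 FPKM).

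The 7 tested genes with separated groups (Sdhd, Sdhaf2, Sdhaf4, Uqcrc2, Cox6b1, Atp5o and Atp5j2) were all higher in knockouts. They are 13.7% of the 51, and 11.5% of all tested genes were separated in that direction and 10.4% in the other. Adipocyte markers summed to 76.9 to 189 FPKM in wild types and 243 to 315 FPKM in knockouts, with 7 of 8 tested markers separated, and marrow stroma markers to 263 to 525 and 641 to 751 FPKM, with 4 of 6 separated. Plasma cell markers summed to 102 to 111 and 147 to 149 FPKM, and 2 of the 4 tested, the antibody genes Igha and Jchain, were higher in knockouts (adjusted p of 0.0141 for both, edgeR). Their part in the results on the respiratory genes was not tested.

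By complex, the median log2 fold change was 0.15 for complex II, 0.03 for complex III, 0.02 for complex IV and 0.05 for complex V, and that of all tested genes was 0.00. Within complex II it was 0.04 for the 4 subunits and 0.18 for the 4 assembly factors. Within complex V it was -0.02 for the 5 genes of the F1 head and central stalk together, 0.03 for the c ring, 0.06 for the peripheral stalk and 0.09 for the membrane part. Positive fold changes were found in 36 of 51 members, or 70.6%, against 51.2% of all tested genes. Knockouts B and C lay higher than knockout A: relative to the wild-type mean, the median of the 51 genes was -0.01 in knockout A, 0.08 in knockout B and 0.06 in knockout C on the log2 scale. Without knockouts B and C, 22 of 51 were positive and the median was -0.01, from 0.03 with all libraries. The medians of complexes III, IV and V then turned to -0.02, -0.02 and -0.02, and that of complex II stayed positive at 0.08. With only knockout B left out the median of the 51 was 0.0136, with 31 positive, and with only knockout A left out it was 0.0659, with 41 positive. Other marker lists also set knockout A apart from B and C. Neutrophil precursor markers summed to 61.4 FPKM in knockout A, 368 in B and 300 in C (71.6 to 285 in wild types), and mature neutrophil markers to 36.1, 184 and 196 FPKM (83.6 to 242). T and NK cell markers summed to 2.24, 5.60 and 4.47 FPKM (2.01 to 3.67). The part of these cells in the shift of the respiratory genes was not tested.

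**Figure D4:**
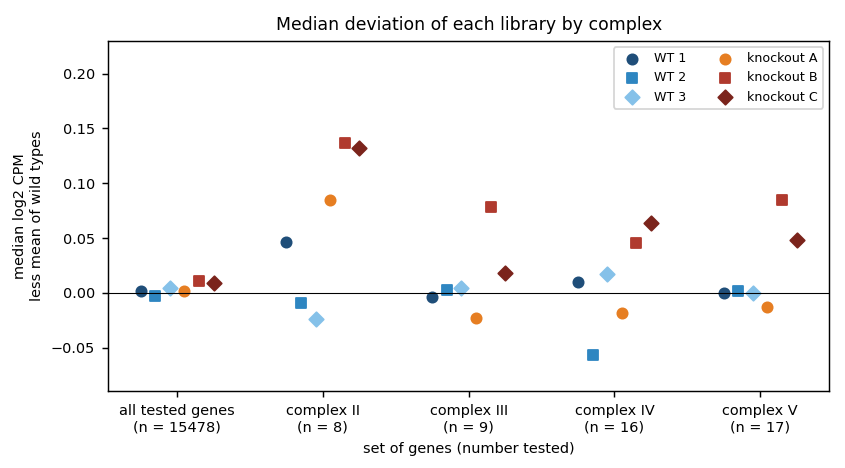
Median log2 CPM of each library less the mean of the wild types, for all tested genes and for the members of each complex, with 1 point per library. In complexes III, IV and V knockout A lies below 0 and knockouts B and C above it. In complex II, here 4 subunits and 4 assembly factors, all 3 knockouts lie above all 3 wild types. For the 4 subunits alone (not drawn) WT 1, at 0.046, was above knockout A, at 0.015.

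Other genes of the pathway did not pass the test either. Of 37 nuclear complex I subunits 0 passed the threshold, 32 had a positive fold change and the median was 0.06. Ndufc2 and Ndufa8, the examples of highest level, were at 75.0 ± 2.54 and 61.3 ± 2.33 FPKM in wild types and 79.1 ± 2.27 and 59.6 ± 1.32 FPKM in knockouts (SD, n = 3). None passed among 6 assembly factors of complex III (median 0.02), 19 of complex IV (0.02) and 6 of complex V (0.01), 13 genes of coenzyme Q synthesis (0.14), 11 regulators of respiratory genes (-0.02) and 79 cytosolic ribosomal proteins (-0.03).

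The 6 subunits of complexes III to V encoded in mitochondrial DNA had negative fold changes, with a median of -0.20, and none passed the threshold. mt-Co1 was at 4425 ± 42.8 FPKM in wild types and 4199 ± 92.5 FPKM in knockouts, and mt-Cytb at 3706 ± 38.8 and 3456 ± 174 FPKM (SD, n = 3). The groups were separated downward in 5 of the 6, all but mt-Co2, as they were in 10.4% of all tested genes. mt-Co3 was at 26.5, 26.9 and 20.3 FPKM in wild types and 18.3, 18.5 and 15.4 FPKM in knockouts (adjusted p = 0.161, edgeR). mt-Co2, mt-Co3, mt-Atp6 and mt-Atp8 were thus at 7.57 to 33.3 FPKM, far below mt-Co1, and their values are uncertain where reads match near-identical nuclear copies.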

How the data were processed

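The genes and lists were chosen with earlier results of these data known. Libraries were made with a SMARTer mRNA kit from 1.3 µg of total RNA, per the labels' protocols. The submitters' processing notes name the builds GRCm38 and mm10, which are names of 1 mouse assembly. The aligner, the counter, the treatment of reads that match several places and the use of strand in counting were not given in these sources.

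The authors deposited raw counts and FPKM for 55291 genes. The deposited FPKM equals the count over summed exon length and a scaled library total (100% of values above 0 match within 1e-06, relative). Raw counts were tested with edgeR 4.0.16 in R 4.3.3 (filterByExpr, TMM scaling, glmQLFit and glmQLFTest, two-sided), with Benjamini-Hochberg adjustment over 15478 genes (threshold 0.05). Each log2 fold change (knockout over wild type) has the SE that the test implies. Groups were called non-overlapping on TMM-scaled CPM. The 3 mice a genotype limit the precision, and the labels pair none of them.

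The alternatives were 17 settings of filter, scaling, test (DESeq2 1.42.0, limma 3.58.1, robust edgeR), libraries and a term for the set of libraries. The fits were tested on simulated data. Named genes were P2rx7, the members of smallest p in each direction, the member of highest FPKM in each complex, all paralogue groups, and from the other lists at most the members past the threshold or else the 2 of highest level, with the 6 mitochondrially encoded subunits. Genes were matched to RefSeq promoter windows (GRCm38.p6) and GENCODE M21 transcripts by symbol. The 8-letter NRF1 core was chosen after the shares of the 10-letter palindrome were seen.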

Additional observations from a re-analysis of the deposited data

How the results depend on the processing

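No respiratory gene passed the adjusted threshold under any of the 17 alternatives (0 in each; 0 to 6 at an unadjusted p under 0.05). The count over all genes was 970 with no filter on low counts, 496 in DESeq2, 10 and 2 in limma on log2(FPKM + 1) and log2(FPKM + 0.1), 0 with knockouts B and C left out, 0 with a term for the library set, and 0 to 172 with 1 library left out (5, 45 and 172 without WT 1, 2 and 3; 8, 0 and 0 without knockouts A, B and C). With knockouts B and C left out and with that term, respectively, the log2 fold change of P2rx7 was -0.64 and -0.64 (no longer past the threshold), and the medians were -0.0135 and -0.0120 for the 51 tested genes, 0.0819 and 0.0837 for complex II, -0.0248 and -0.0232 for complex III and -0.0157 and -0.0141 for complex V. Both fits rest on knockout A alone for the genotype effect, and the lone knockout is taken to vary like the other libraries. Uqcrfs1 turned to -0.0112 and -0.0097 in them. The complex II median was 0.0833 in limma on log2(FPKM + 1). With 1 library left out, the log2 fold change of P2rx7 was -0.69 to -0.65, and its adjusted p in edgeR was 0.0763 without knockout B and 0.0973 without knockout C. Likewise the median was 0.0136 to 0.0659 for the 51 genes, 0.0136 to 0.0492 for complex III and 0.0169 to 0.0838 for complex V, each lowest without knockout B and highest without knockout A, and -0.0002 (without WT 2) to 0.0453 (without knockout A) for complex IV, which was 0.0329 without WT 1, 0.0017 without knockout B and 0.0008 without knockout C. The complex V median was 0.0277 without WT 2, 0.0220 without WT 3 and 0.0245 without knockout C. The log2 fold changes of Atp5mpl, Sdha, Uqcrfs1 and Cox7c were 0.0741, 0.0475, 0.0440 and -0.0202 without knockout C; Uqcrfs1 was 0.1156 without knockout A, Atp5d -0.0869 without WT 1, and Cox7c -0.0374, -0.1053 and -0.1258 without WT 1, WT 3 and knockout B. The cause of these shifts was not tested. Cox7a1 was not tested under the filter of 1 CPM. No paired analysis was possible because the labels number the wild types and letter the knockouts.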
